A study of Mus musculus with 2 samples.

Results

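The genes described here encode the intermediate chains, light chains and docking proteins of axonemal dynein, the motor that bends motile cilia. They were chosen by symbol from a list of 10, of which Dnai1 and Dnai2 are other names of Dnaic1 and Dnaic2. The remaining 8 symbols were found in the deposited table, as 10 transcript rows among 27606, and make up 8 of its 17586 genes. The LRO group was GFP-positive left–right organizer cells, and the non-LRO group was GFP-negative cells, both sorted from FOXJ1-EGFP mouse embryos of 0 to 4 somites on a mixed C57BL/6 x 129 SvEv background. In this line a FOXJ1 promoter drives the fluorescent protein, so the sort itself selects cells with an active programme for motile cilia. Each group was 1 pool of cells and gave 1 library, and embryos were pooled separately for the groups. The paper reports fewer sorted cells and less RNA for the LRO pool than for the non-LRO pool.

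Axonemal dyneins sit in outer and inner rows of arms along the microtubule doublets. In an outer arm, heavy chains carry the motor, intermediate chains at the base hold the heavy chains together, and light chains regulate the motor. A docking complex of coiled-coil and repeat proteins fixes the outer arm to the doublet. The pit cells of the organizer, or node, each bear 1 cilium whose rotation drives a leftward flow, and loss of outer arm genes in mouse or human leads to immotile cilia and to randomized placement of the organs.

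No difference between the groups could be checked against replicates, so the values describe these libraries alone. The LRO library held 16672852 assigned reads and the non-LRO library 13418798, within library totals of 30277870 and 24407299 that were recovered from the RPKM values (reads per kilobase of transcript, scaled to the library total). Ratios are LRO over non-LRO reads scaled to those totals, each with an exact Clopper-Pearson 95% interval of counting error only. The size rule counted a gene as higher where its whole interval lay above 2, and as lower where it lay below 0.5. The column taken as LRO was unlabelled in the table, and it fitted the markers of that label, since 7 of 7 organizer genes were higher, among them Foxj1 with 194 LRO reads against 4 non-LRO reads (a check of the sort, not a finding). Other cell types moved too. Of 5 cardiac and pharyngeal markers 4 were higher, with summed levels of 76.5 RPKM in the LRO library and 27.8 RPKM in the non-LRO library, and both neural crest markers were higher, at 11.3 and 0.175 RPKM. The erythroid transcription factors Gata1 and Klf1 were lower, with 0 LRO reads each against 124 and 163 non-LRO reads. Of the extraembryonic endoderm markers 5 of 5 were lower, of the endothelial markers 4 of 4 and of the presomitic mesoderm markers 2 of 4, while 0 of 3 neuroectoderm markers were called. The part of these cells in the results below was not tested, and in pooled cells fewer cells of a type and less RNA per cell cannot be told apart.

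Promoter sequence is shown for 4 of the genes because RFX factors, which switch on ciliary genes, bind an imperfect palindrome called the X-box close to the start of transcription. RefSeq windows on GRCm38.p6, of 250 bases before and 50 bases after the start, were matched for 6 of the 8 genes (Dnaic1, Dnaic2, Dnal1, Dnali1, Ccdc114 and Ccdc151). The motif searched was GTTNC and GNAAC with 3 or 4 bases between them, which reads the same on both strands and was chosen after the sequences were seen. The 100 bases before the start are printed 5′ to 3′, with the motif in capitals, for Dnaic2 (chr11:114727319-114727418, + strand), Dnaic1 (chr4:41569694-41569793, + strand), Ccdc151 (chr9:22002635-22002734, − strand) and, as a window without the motif, Dnali1 (chr4:125065658-125065757, − strand).
Dnaic2: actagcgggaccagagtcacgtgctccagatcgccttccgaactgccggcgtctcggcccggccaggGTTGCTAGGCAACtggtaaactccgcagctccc
Dnaic1: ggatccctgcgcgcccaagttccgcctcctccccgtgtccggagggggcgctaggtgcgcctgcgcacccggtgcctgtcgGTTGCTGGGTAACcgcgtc
Ccdc151: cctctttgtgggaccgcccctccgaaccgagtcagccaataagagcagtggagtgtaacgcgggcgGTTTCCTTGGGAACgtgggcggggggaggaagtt
Dnali1: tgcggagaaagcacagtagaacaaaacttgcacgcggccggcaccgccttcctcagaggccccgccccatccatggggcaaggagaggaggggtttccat

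The motif lay 33 to 21 bases before the start in Dnaic2, 19 to 7 bases before it in Dnaic1 and 34 to 21 bases before it in Ccdc151. The Ccdc151 window also held a second match that begins 3 bases before the start and runs across it. Among all 32851 windows, with chromosome 18 kept, 1.98% held the motif, against 3 of the 6 windows used for these genes. Because the motif was chosen after these sequences were seen, no enrichment can be read from that comparison. None of the 6 held TGTTTAC or its reverse complement GTAAACA, the core that forkhead factors such as FOXJ1 prefer, which 3.65% of all windows held. A match is a description of the letters and not a binding site.

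Of the 8 genes 4 were higher in the LRO library and 0 were lower. Among all genes 3.97% were called higher and 12.3% lower. These were 699 and 2167 genes, or 1134 and 1388 with TMM factors, a scaling that changed no call among the 8. The higher genes were both intermediate chains, Dnaic1 and Dnaic2, and the docking genes Ttc25 and Armc4. The docking genes Ccdc151 and Ccdc114 and the light chains Dnal1 and Dnali1 were not called. The median log2 ratio of the 8 genes, with a pseudocount of 1 read, was 1.11, or 0.76 with Dnaic1 set to its bound, beside -0.42 over all genes. Setting every gene without reads in a library against such a floor gave -0.31 over all genes. The 9892 genes with at least 50 reads in each library had a median log2 ratio of -0.31, and relative to that shift the median of the 8 genes was 1.42.

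**Figure D1:**
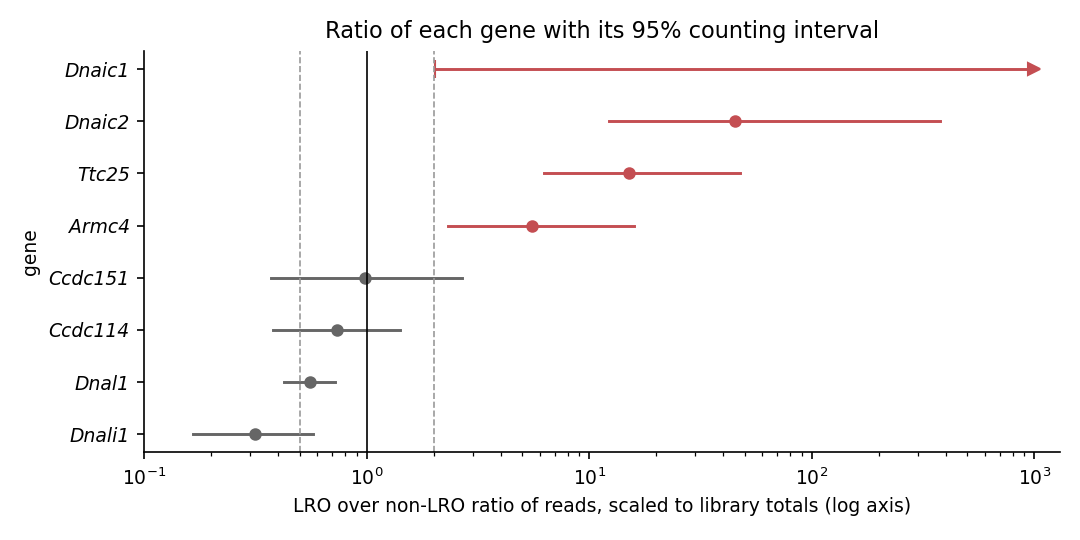
The horizontal axis gives the LRO over non-LRO ratio of reads scaled to library totals, on a log axis, for the 8 genes on the vertical axis, where points are ratios, lines are 95% counting intervals, red marks a call of higher and dashed lines stand at 0.5 and 2. The interval of Dnaic1 starts at 2.02 and has no upper end because the gene had 0 non-LRO reads.

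The intermediate chains Dnaic1 and Dnaic2 encode WD-repeat proteins that pair at the base of the outer arm. Dnaic2 lay on chromosome 11 at 114588726 to 114619201 of the deposited table, whose build is older than GRCm38, and had 13 exons in GENCODE M21. It had 112 reads (1.29 RPKM) in the LRO library against 2 reads (0.0285 RPKM) in the non-LRO library. The ratio was 45.1 (12.2 to 377), the highest of the 7 genes with reads in each library. Its interval overlapped that of Ttc25. The 2 non-LRO reads of Dnaic2 lay below 3 reads, the floor that stands for the limit of detection, so the size of its ratio is uncertain.

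Dnaic1, the partner of Dnaic2, lay on chromosome 4 at 41516827 to 41585192 and had 20 exons. It had 11 reads (0.146 RPKM) in the LRO library against 0 reads in the non-LRO library, where a floor of 3 reads stands for the limit of detection. Against that floor its reads were 2.96-fold higher, without counting error. The lower bound of its interval was 2.02, just past the limit of 2, and it fell to 1.30 with a 99% interval, which ended the call. Both chains are built into 1 arm, yet in the LRO library the level of Dnaic2 per length was 1.29 RPKM (Poisson 95% interval 1.06 to 1.55) and that of Dnaic1 was 0.146 RPKM (0.0728 to 0.261). These intervals did not overlap. The order was the other way on reads that cross an exon junction. There Dnaic2 had 3 LRO reads (0.0345 junction RPKM) and Dnaic1 had 5 (0.0663 junction RPKM). Dnaic2 thus stood at the floor of 3 reads, so the order on junction reads is uncertain. As a sum the intermediate chains had 123 LRO reads against 2 non-LRO reads, a ratio of 49.6 (13.4 to 414).

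The docking complex is made of Ccdc114, Armc4, Ccdc151 and Ttc25, also named Odad1 to Odad4. Its members split, with Ttc25 and Armc4 higher and the coiled-coil genes Ccdc151 and Ccdc114 not called. Ttc25, a tetratricopeptide repeat protein that recruits the other docking subunits to the cilium, lay on chromosome 11 at 100406946 to 100433881 with 12 exons. It had 94 reads (1.10 RPKM) in the LRO library against 5 reads (0.0727 RPKM) in the non-LRO library, a ratio of 15.2 (6.27 to 47.8).

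Armc4, an armadillo repeat protein, lay on chromosome 18 at 7088231 to 7297900 with 21 exons. It had 41 reads (0.389 RPKM) in the LRO library against 6 reads (0.0707 RPKM) in the non-LRO library. The ratio was 5.51 (2.33 to 15.9). The call ended with a 99% interval, whose lower bound was 1.88. Reads of Ttc25 and Armc4 in the non-LRO library were few but above the floor of 3 reads, so neither gene was without reads there.

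Ccdc151, a coiled-coil protein that binds the other docking subunits, lay on chromosome 9 at 21794315 to 21807079 with 13 exons. It had 11 reads (0.165 RPKM) in the LRO library against 9 reads (0.168 RPKM) in the non-LRO library, and its ratio of 0.985 had an interval of 0.371 to 2.69. Its pair of transcript rows had the same ends on the chromosome and shared the reads almost evenly, at 5.32 and 5.68 in the LRO library against 4.35 and 4.65 in the non-LRO library. A difference within that interval was not detectable at this depth.

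Ccdc114, the coiled-coil scaffold of the docking complex, lay on chromosome 7 at 53183768 to 53204327 with 13 exons. It had 20 reads (0.269 RPKM) in the LRO library against 22 reads (0.367 RPKM) in the non-LRO library, a ratio of 0.733 (0.379 to 1.41). On all reads its interval lay wholly below those of Ttc25 and Armc4. The intervals overlapped on junction reads, where the ratio of Ccdc114 was 3.22 (0.643 to 31.2) and that of Armc4 was 6.45 (1.52 to 57.8), and with reads divided by 10. Summed over the docking complex there were 166 LRO reads against 42 non-LRO reads, a ratio of 3.19 (2.26 to 4.58).

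The light chains had the lowest ratios of the 8 genes. Dnal1, a leucine-rich repeat light chain that binds the motor domain of an outer arm heavy chain, lay on chromosome 12 at 85455278 to 85484461 with 8 exons. It had 101 reads (0.575 RPKM) in the LRO library against 147 reads (1.04 RPKM) in the non-LRO library. The ratio was 0.554 (0.426 to 0.718), below 1 but short of the rule for a lower gene. Its pair of transcript rows shared both chromosomal ends, and the authors' software split the reads between them in the same proportion in each library, at 75.2 and 25.6 reads against 110 and 37.4 reads.

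Dnali1, the light intermediate chain of inner arms, lay on chromosome 4 at 124732583 to 124742902 with 6 exons. It had 16 reads (0.253 RPKM) in the LRO library against 41 reads (0.805 RPKM) in the non-LRO library. The ratio was 0.315 (0.165 to 0.573), and the upper bound stayed above 0.5. The light chains together had 117 LRO reads against 188 non-LRO reads, a ratio of 0.502 (0.395 to 0.635), and on all reads this interval did not overlap those of the intermediate chains or of the docking complex. On junction reads it did overlap them, with 4 LRO reads against 0 non-LRO reads and a lower bound of 0.532 for the light chains. The sums do not hold for each docking gene. On all reads the intervals of Ccdc151 (0.371 to 2.69) and Ccdc114 (0.379 to 1.41) overlapped those of both light chains.

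**Figure D2:**
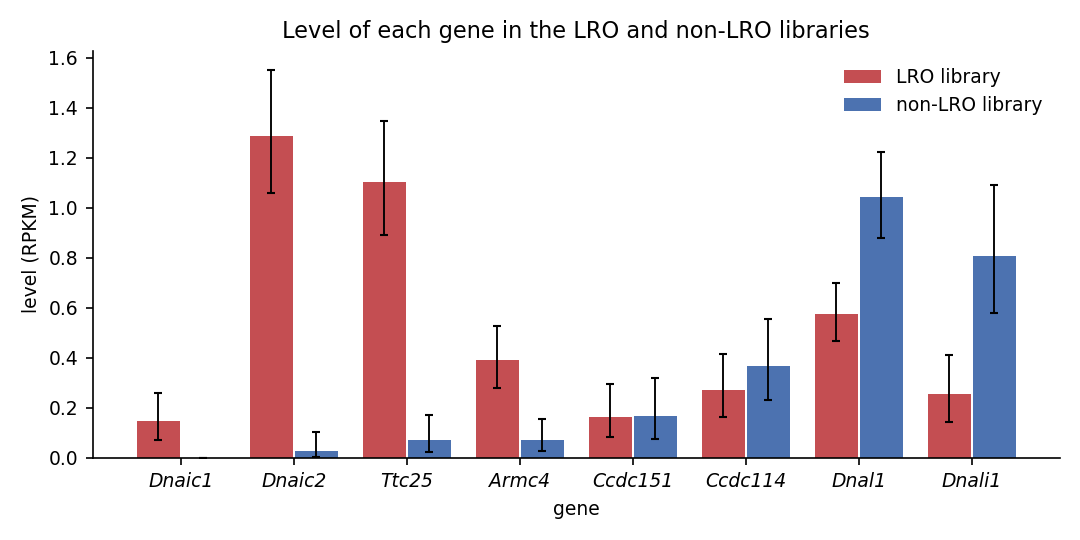
Bars give the level in RPKM of each of the 8 genes in the LRO library (red, left) and in the non-LRO library (blue, right), with Poisson 95% intervals as error bars. Dnaic2 and Ttc25 stand highest in the LRO library, at 1.29 and 1.10 RPKM, and Dnal1 and Dnali1 in the non-LRO library, at 1.04 and 0.805 RPKM, where Dnaic1 has no bar.

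Levels per length lay below the median of all genes in each library. In the LRO library the order was Dnaic2, Ttc25, Dnal1, Armc4, Ccdc114, Dnali1, Ccdc151 and Dnaic1. All 8 genes lay below the median gene of 1.43 RPKM there, though the interval of Dnaic2 (1.06 to 1.55) included that median. Among neighbours in the LRO order the Poisson intervals of Ttc25 and Dnal1 did not overlap, while those of every other pair of neighbours did. In the non-LRO library the order was Dnal1, Dnali1, Ccdc114, Ccdc151, Ttc25, Armc4, Dnaic2 and Dnaic1, below a median gene of 1.93 RPKM. There the intervals of Dnali1 and Ccdc114 did not overlap, while those of every other pair of neighbours with reads did. Dnaic2 thus stood first of 8 in the LRO library and next to last in the non-LRO library.

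Reads that cross an exon junction come from spliced RNA, and the table gives them as a separate RPKM value. Over the 8 genes 55 of 406 LRO reads crossed a junction, or 13.5% (95% interval 10.4 to 17.3), against 5 of 232 non-LRO reads, or 2.16% (0.703 to 4.96). Over all genes the shares were 12.7% of LRO reads and 15.6% of non-LRO reads. The light chains held 188 of the 232 non-LRO reads, and without Dnal1 and Dnali1 the shares were 17.6% (13.4 to 22.5) in the LRO library and 11.4% (3.79 to 24.6) in the non-LRO library, whose intervals overlapped.

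Dnal1 had 2 junction reads of 101 in the LRO library against 0 of 147 in the non-LRO library, where a floor of 3 reads allows a share of up to 2.04% and the exact interval up to 2.48%. It has 1.22 junctions per kilobase and 9.95% of its transcript is coding. Dnali1, with 2.34 junctions per kilobase, had 2 of 16 in the LRO library against 0 of 41 in the non-LRO library, where the floor allows up to 7.32% and the exact interval up to 8.60%. Exons of Dnali1 share 43 bases with the gene Gnl2 on the opposite strand in GENCODE M21, and those of Dnal1 share 384 bases with Pnma1 on the opposite strand. Ccdc114 shares 103 bases with Gm45442 and Dnaic1 shares 15 bases with Enho in the same way. Gnl2 stood at 8.74 RPKM in the LRO library and 14.7 RPKM in the non-LRO library, and Pnma1 at 0.252 and 0.261 RPKM. The library kit did not keep strand, so reads of such overlaps cannot be told apart.

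Ccdc114 had 8 junction reads of 20, or 40.0% (19.1 to 63.9), in the LRO library against 2 of 22, or 9.09% (1.12 to 29.2), in the non-LRO library. Ccdc151 had 3 of 11 in the LRO library against 0 of 9 in the non-LRO library, where the floor allows up to 33.3% and the exact interval up to 33.6%. Armc4 had 16 of 41 in the LRO library against 2 of 6 in the non-LRO library, and Ttc25 had 16 of 94 against 1 of 5. Dnaic1 had 5 of 11 in the LRO library, and Dnaic2 had 3 of 112 in the LRO library against 0 of 2 in the non-LRO library.

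**Figure D3:**
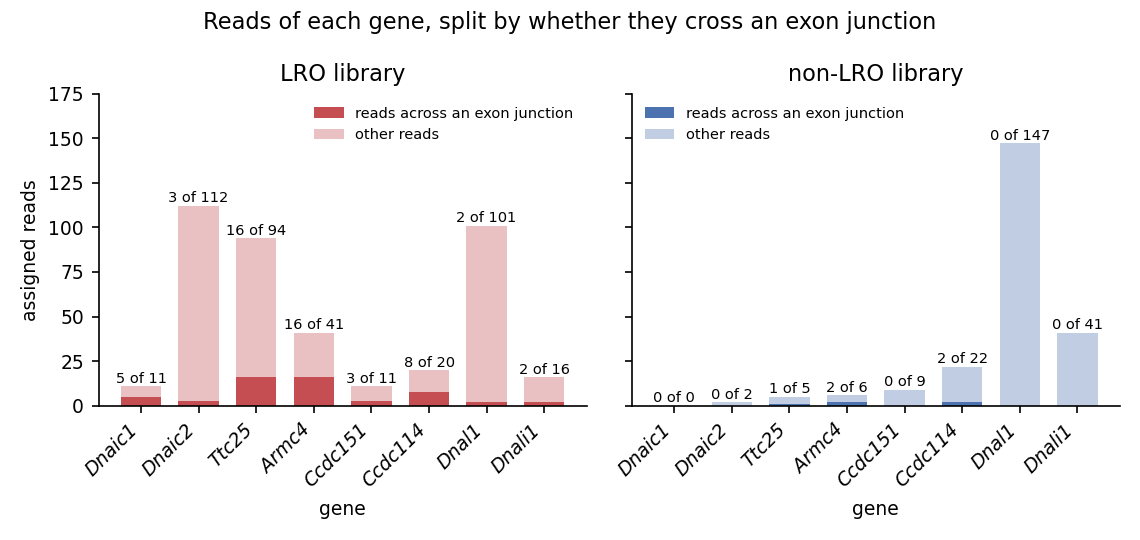
Bars give the assigned reads of each of the 8 genes in the LRO library (left panel) and the non-LRO library (right panel), split into reads that cross an exon junction (dark) and all other reads (pale), with the numbers above each bar. The tallest bar on the right, Dnal1 with 147 reads, has 0 junction reads.

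Counted on junction reads alone, a comparison added after the data were seen, the 8 genes had 55 LRO reads against 5 non-LRO reads, a ratio of 8.87 (3.58 to 28.4), beside 1.41 (1.20 to 1.66) on all reads. The 4 genes that were not called had 15 junction reads in the LRO library against 2 in the non-LRO library, a ratio of 6.05 (1.41 to 54.5), where all their reads gave 0.545 (0.439 to 0.674). This group was formed by its result on all reads, and the sums weigh different genes. The light chains gave 117 of its 148 LRO reads and 188 of its 219 non-LRO reads, but 4 of its 15 LRO junction reads and 0 of its 2 non-LRO junction reads. Each of the 8 genes had more junction reads in the LRO library, at 2 to 16, than in the non-LRO library, at 0 to 2. On junction reads Ttc25 alone was called, at a ratio of 12.9 with a lower bound just past 2 and an upper bound of 541. The other 7 genes were not called, with lower bounds of 0.151 to 1.52. Among the 13365 genes with a junction read 1.82% were called higher and 6.39% lower.

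The list of cytoplasmic dynein chains held subunits of the motors that are not part of the axonemal arms, including the dynein that carries cargo back along the cilium, and light chains shared between motors. Of its 17 genes 1 was higher and 1 lower, with a median log2 ratio of -0.10. The higher gene was Dynlrb1, a roadblock light chain, at 143.8 RPKM in the LRO library and 61.2 RPKM in the non-LRO library, a ratio of 2.35 (2.19 to 2.53). The lower gene was Dynlt1a, at 41 reads in the LRO library against 101 in the non-LRO library, a ratio of 0.327 (0.222 to 0.475). Dynlt1a is 1 of several near-identical copies, so its reads are uncertain. On junction reads the ratio of the summed list was 1.08 (1.04 to 1.12), close to 1.05 (1.03 to 1.08) on all reads.

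Other axonemal intermediate, light and docking genes also split. Of 9 measured, 2 were higher, 0 lower and 7 neither, with a median log2 ratio of -0.28. Wdr63, an inner arm intermediate chain, had 46 LRO reads against 0 non-LRO reads. It was 12.4-fold higher against the floor of 3 reads, and the lower bound of its interval was 9.65. Dynlrb2, the ciliary relative of Dynlrb1, had 34 LRO reads against 1 non-LRO read, below that floor, a ratio of 27.4 (4.60 to 1114). Both calls were lost where 50 reads over both libraries were required. Mns1, whose protein binds the docking complex, had 729 LRO reads against 571 non-LRO reads and was not called, and neither were the light chain Dnal4, with 94 against 92 reads, and the intermediate chain Wdr78, with 58 against 43.

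Axonemal heavy chains, the motors of the outer and inner arms, were higher for 6 of 12 measured genes and lower for 1, with a median log2 ratio of 2.02. With genes lacking reads set against the floor of 3 reads it was 1.14. Dnah5, an outer arm heavy chain, had 477 LRO reads against 4 non-LRO reads, a ratio of 96.1 (37.3 to 354). Its level per length in the LRO library was 1.01 RPKM, beside 1.29 RPKM for Dnaic2 and 1.10 RPKM for Ttc25. Dnah9, another outer arm heavy chain, was at 0.429 RPKM in the LRO library, near Armc4 at 0.389 RPKM. Dnah6 stood at 0.987 RPKM there, with a ratio of 38.1 (19.1 to 88.9). Dnah10 stood at 0.153 RPKM, with a ratio of 26.2 (6.97 to 221). The lower gene was Dnah17, with 6 LRO reads against 59 non-LRO reads, of which 0 crossed an exon junction in either library. Its call was lost with reads divided by 10 and on junction reads. Of 16 assembly factors, which build the arms in the cytoplasm, Lrrc56 alone was higher, at 3.34 (2.18 to 5.30), and the list median was 0.03. Both Lrrc56 and Dynlt1a lost their calls with a 99% interval, and Dynlt1a also with TMM factors.

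**Figure D4:**
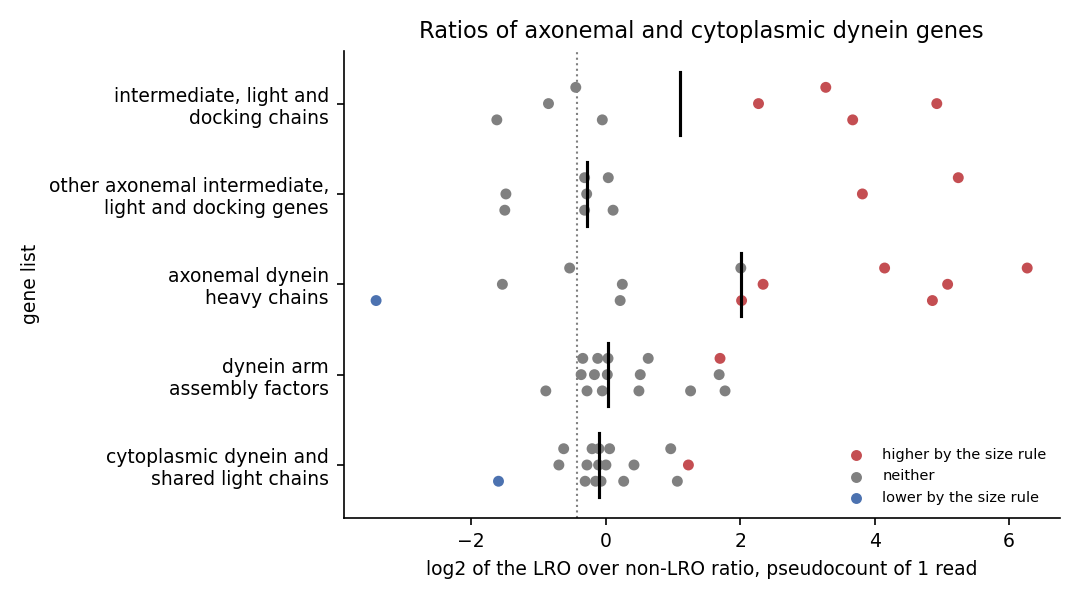
Each point is a gene, placed on the horizontal axis by the log2 of its LRO over non-LRO ratio with a pseudocount of 1 read, in 5 rows of genes, where red is higher, blue is lower and grey is neither by the size rule, black bars are list medians and the dotted line is the median of all genes at -0.42. The intermediate, light and docking chains fall into 4 red points above 2 and 4 grey points below 0. The red points include Dnaic1, which had 0 non-LRO reads and would stand at 1.56 against the floor of 3 reads.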

How the data were processed

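RNA of sorted LRO and non-LRO cells was amplified to double-stranded cDNA, without strand, and sequenced from 1 library each. The authors aligned reads with TopHat and quantified RefSeq transcripts with Partek 6.6. The deposited estimated counts are reads per transcript, split where transcripts of a gene share them. The deposited RPKM values are those reads per kilobase, scaled to a library total. The deposited table gives transcript length in bases, another unit, and junction RPKM, from which junction reads were recovered (99.6% and 99.7% were within 0.01 of a whole number for transcripts with whole reads in the LRO and non-LRO libraries). The deposited p-value is the authors' own comparison of the libraries and was not used, nor were 2 further columns of values per library.

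One column named GFP-negative cells. The other was unlabelled and was taken as LRO, being the only one left and having the reads that the study's supplement gives for GFP-positive cells. The labels name mm10, but positions on chromosome 1 reach 197002910, beyond 195323493 in GENCODE M21, so an older build was used.

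Counts were summed per symbol and rounded. Ratios, intervals and calls were computed over all genes with Python 3.11.15 and scipy 1.17.1, and tested on simulated data. The genes changed in that simulation had at least 50 expected non-LRO reads and Poisson counts. It therefore does not show how the rule works for changed genes with fewer reads. No test of the conditions was possible. Intervals cover counting error only, and amplified reads are not independent molecules. The members, lists and the rule naming genes (all members, up to 4 called genes per list and direction, and Foxj1) were chosen with earlier results of these data known. Genes named without a call were chosen after their values were seen. Alternatives were other scalings (assigned reads, TMM from edgeR 4.0.16, median ratio), fold bounds of 1.5 and 4, a 99% interval, at least 50 reads, reads divided by 10, single transcripts, other pseudocounts (0.5 and 5) and, added later, junction reads. Promoters are RefSeq sequences. The summed level of the erythroid marker list is not reported here.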

Additional observations from a re-analysis of the deposited data

How the results depend on the processing

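Of the 8 genes 4 were called higher, and this count was 2 with a fold bound of 4, 2 with a 99% interval, 2 with at least 50 reads over both libraries, 1 with reads divided by 10 and 1 on junction reads. Dnaic2 and Ttc25 were the 2 that passed in each of the first 3 settings, and Dnaic2 was the 1 that passed at a division by 10. The setting of at least 50 reads kept 4 of the 8 genes, and none of their calls changed. The count of lower genes was 1 (Dnali1) at a fold bound of 1.5. All 8 calls held under the 3 other scalings and with single transcripts, while the ratio of Ccdc151, which was not called, moved to 1.25 with TMM factors. Over all genes, 699 were called higher and 2167 lower. Higher calls numbered 1134 with TMM factors, 1056 under median-ratio scaling, 1242 and 246 at fold bounds of 1.5 and 4, 155 with reads divided by 10, 1236 with single transcripts and 243 on junction reads. Lower calls numbered 1388, 1443, 3872, 680, 293, 3318 and 854 under those settings, and 1342 with at least 50 reads. TMM factors shifted all log2 ratios by 0.35. Changed bounds, reads and features set these counts directly. Other scalings multiply every ratio and bound by the same constant, which moves the counts directly. Why the scalings differ was not tested. Of 80 recomputed counts over the other lists 56 stayed within 1.5 times. Depth limits the 8 genes through their few reads, at 11 to 112 LRO reads and 0 to 147 non-LRO reads. No paired analysis was possible because there was 1 library for each group.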

Other observations

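The share of junction reads varied within the genes called higher. In the LRO library 3 of 112 Dnaic2 reads crossed an exon junction, or 2.68% (95% interval 0.556 to 7.63), although its transcript has 4.18 junctions per kilobase. Armc4, with 5.75 junctions per kilobase, had 39.0% (24.2 to 55.5) and Ttc25, with 4.91, had 17.0% (10.1 to 26.2). The interval of Dnaic2 did not overlap either of these. In the LRO library the median over 10531 genes with at least 50 reads was 14.4%, and 6.12% of these genes had 0 junction reads.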
